A study of Mus musculus with 48 samples.

Results

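The metallothionein and glucocorticoid response genes, taken as a readout of systemic stress, were followed through 5 organs of mice with collagen-induced arthritis (CIA) and of healthy mice. They are the metallothionein genes *Mt1* and *Mt2* and the glucocorticoid response genes *Tsc22d3*, *Fkbp5*, *Per1*, *Sgk1* and *Zbtb16*. They were chosen by name, as 7 of the 34586 genes in the deposited count table, and all 7 were found in it. Single cells had been profiled with Seq-Well, a method that pairs single cells with barcoded beads in small wells and counts polyadenylated transcripts by their unique molecular identifiers (UMIs). The counts of the cells with a deposited cell type were summed per mouse, organ and cell type, which makes the mouse the unit of replication. The 48 samples came from joint (3 healthy and 5 CIA mice) and from lung, muscle, skin and spleen (4 healthy and 6 CIA mice each).

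All mice were young adult male DBA1/J mice. The CIA mice had received 100 µg of bovine collagen II in complete Freund's adjuvant at the tail base and a booster in incomplete adjuvant on day 20, and the study's methods give an injection of PBS for the controls. CIA mice therefore differ from healthy mice in collagen, adjuvant and arthritis together. The organs of a mouse carry the same mouse name and are not independent. Healthy and CIA mice with the same number are different animals. CIA mice 1, 2 and 3 had an arthritis score of 8 and belong, with healthy mouse 3, to the experiment named 2CIA in the labels. CIA mice 5, 6 and 8, with scores of 2 to 5, and healthy mice 4, 6 and 7 belong to the experiment named CIA, so that severity and experiment cannot be told apart among the CIA mice. Organs had been frozen and thawed. In muscle, red cell lysis was taken as done for healthy mice 6 and 7 and CIA mice 2, 3, 6 and 8. It was taken as not done for healthy mice 3 and 4 and CIA mice 1 and 5. Joint, lung, muscle and skin were digested with enzymes, whereas spleen was strained without enzyme, so that organ and preparation cannot be told apart either.

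Glucocorticoids, the hormones of the adrenal stress axis, bind a receptor that enters the nucleus and switches on genes through paired half-sites in DNA. *Tsc22d3* encodes the leucine zipper protein GILZ, which mediates anti-inflammatory effects of the hormone. *Fkbp5* encodes a co-chaperone that lowers the receptor's own affinity, *Per1* a repressor of the circadian clock, *Sgk1* a kinase that regulates ion channels, and *Zbtb16* a zinc finger transcription factor of innate-like lymphocytes. Metallothioneins are small cysteine-rich proteins that bind zinc and copper. Their genes respond to metals through the factor MTF1 as well as to glucocorticoids and inflammatory cytokines.

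*Mt2* and *Mt1* lie next to each other on the same strand. In the GENCODE annotation of GRCm38, *Mt2* spans chr8:94172664-94173568 and *Mt1* spans chr8:94179082-94180327, with 5513 bases between them. Their mature transcripts resemble each other, and reads that fit both could be split between them in a way that the deposited counts do not show. *Sgk1* spans chr10:21882184-21999903 on the plus strand, *Per1* chr11:69095217-69109960 on the plus strand, *Fkbp5* chr17:28399094-28517527 on the minus strand, *Zbtb16* chr9:48654297-48836222 on the minus strand and *Tsc22d3* chrX:140539528-140600659 on the minus strand. All 7 are protein-coding genes.

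The start regions of the 2 metallothionein genes and of 1 start of *Sgk1* are shown because they hold the elements through which these genes are known to respond. RefSeq start regions (GRCm38.p6) were at hand for 6 of the 7 genes, as 14 windows from 250 bases before to 50 bases after a start, and the 250 bases before the start are printed 5′ to 3′. Capitals mark matches, on either strand, to the core of the metal response element (TGCACNC or TGCGCNC) in *Mt1* and *Mt2* and to the palindromic glucocorticoid response element (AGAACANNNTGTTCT) in *Sgk1*.
Mt2, chr8:94172368-94172617, plus strand: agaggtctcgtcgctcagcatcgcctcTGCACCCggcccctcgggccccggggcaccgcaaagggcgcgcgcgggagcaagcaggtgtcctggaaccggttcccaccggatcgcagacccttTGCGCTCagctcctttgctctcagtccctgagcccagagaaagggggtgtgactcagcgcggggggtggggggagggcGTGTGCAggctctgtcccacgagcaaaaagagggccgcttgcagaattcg
Mt1, chr8:94178839-94179088, plus strand: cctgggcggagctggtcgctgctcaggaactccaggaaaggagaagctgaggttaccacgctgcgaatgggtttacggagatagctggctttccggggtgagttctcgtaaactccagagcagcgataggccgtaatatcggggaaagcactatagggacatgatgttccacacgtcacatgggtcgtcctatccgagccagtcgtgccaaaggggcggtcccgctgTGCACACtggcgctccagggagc
Sgk1, chr10:21993640-21993889, plus strand: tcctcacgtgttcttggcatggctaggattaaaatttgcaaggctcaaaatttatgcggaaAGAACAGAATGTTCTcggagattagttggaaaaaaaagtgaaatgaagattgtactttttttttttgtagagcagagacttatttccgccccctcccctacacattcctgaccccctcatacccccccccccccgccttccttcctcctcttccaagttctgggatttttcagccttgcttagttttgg

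Within its 300 bases, the *Mt2* window held 4 matches to the metal response core and the *Mt1* window 3, of which 1 and 2, respectively, lie after the start and are not printed. At least 1 match occurred in 25.7% of the 32851 RefSeq windows of the genome and at least 3 in 1.97% of them. The full glucocorticoid palindrome occurred in 3 of the 32851 windows (0.00913%), and the *Sgk1* window printed above is among these, with the match beginning 189 bases before the start. The half-site AGAACA, found in 19% of the windows, was also present in other *Sgk1* windows and in 1 of the *Tsc22d3* windows. The E-box CACGTG, the motif of the clock factors, was found in a window of *Fkbp5*, *Per1* and *Sgk1* and in 7.15% of all windows. A match describes the letters of the window and not a bound site.

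Of the 13240 cells in the table, 12096 had 1 of 13 deposited cell types and the remaining 1144 were left out of the comparisons. A sample held 17748 to 1645734 UMIs in annotated cells (median 125628 in CIA and 120563 in healthy samples), and the median annotated cell had 675 UMIs from 409 genes. In all, 8 of the 13 cell types carried their own marker list at a higher level than any other type did. The exceptions were dendritic cells, monocytes, neutrophils, T cells and the cells labelled myocytes, whose marker list reached 82.5 CPM against 1928 CPM in endothelial cells. Across libraries, 59 barcodes occurred more than once, and 36 of them were shared by the muscle and the spleen of CIA mouse 8. That muscle library was 57.3% B cells and had values close to those of spleen, at 21.1 CPM for *Mt1*, *Mt2* and *Sgk1* and 375 CPM for *Tsc22d3*. Results on muscle are therefore also given without it where it matters. CPM, the usual scale for depth-normalized counts, is the gene's part of all UMIs of the same sum. UMIs count transcripts and were not divided by length, so that levels are compared between samples and not between genes.

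The 7 genes differed widely in how many UMIs stood behind them. In annotated cells, *Mt2* had 4582, *Mt1* 4136, *Tsc22d3* 2120, *Sgk1* 2074, *Per1* 465, *Fkbp5* 175 and *Zbtb16* 49 UMIs. Most samples held no UMI of *Zbtb16* and some none of *Fkbp5* or *Per1*, so that only large differences in these genes were detectable at this depth.

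The metallothioneins and *Tsc22d3* marked opposite ends of the organs. Over all annotated cells, *Mt1* was highest in skin (848 ± 379 CPM, SD, n = 10 mice), followed by joint (784 ± 562, n = 8), lung (424 ± 168, n = 10) and muscle (356 ± 453, n = 10), and lowest in spleen (33.3 ± 26.7, n = 10). *Mt2* followed a like order, from skin (1093 ± 476 CPM) and joint (920 ± 620) through muscle (338 ± 469) and lung (185 ± 199) to spleen, where no mouse was above 47.3 CPM. In each of these orders, neighbouring organs differed by less than the larger of their SDs, but all 10 mice had more *Mt1* and more *Mt2* in skin than in spleen.

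*Tsc22d3* had its ends the other way round. It was highest in spleen (401 ± 115 CPM), beyond the SD above muscle (190 ± 114), and then fell through joint (89.9 ± 44.1) and lung (88.8 ± 69.9) to skin (39.4 ± 18.7). All 10 mice had more *Tsc22d3* in spleen than in muscle. *Sgk1* went with the metallothioneins rather than with *Tsc22d3*, from joint (339 ± 183 CPM), lung (259 ± 121), skin (249 ± 84.3) and muscle (187 ± 131) to spleen (60.4 ± 32.0). *Per1* was between 57.3 ± 26.0 CPM in muscle and 12.4 ± 12.4 in skin, *Fkbp5* between 20.1 ± 16.6 in lung and 10.0 ± 11.5 in skin, and *Zbtb16* between 9.09 ± 9.66 in joint and 2.13 ± 3.76 in spleen, each with neighbours within the SD. Without the muscle of CIA mouse 8, the muscle means were 394 ± 464 CPM for *Mt1* and 169 ± 99.1 CPM for *Tsc22d3* (n = 9).

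These differences between organs were tested with limma voom, with the mouse as a random block. *Mt1* (adjusted p = 4.93e-09), *Mt2* (1.18e-09), *Tsc22d3* (1.13e-13) and *Sgk1* (9.75e-07) were called, all 4 members that passed the filter on low counts. The test was chosen after the levels were seen, and 69.9% of the 3466 genes tested were called in it, so that a difference between organs was the rule among expressed genes. Among the genes under the filter, *Per1* differed too (adjusted p = 1.83e-05, limma voom over all genes with at least 10 UMIs), whereas *Fkbp5* (0.213) and *Zbtb16* (0.113) did not pass. Which of organ, cell composition and preparation these differences follow cannot be told apart.

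**Figure D1:**
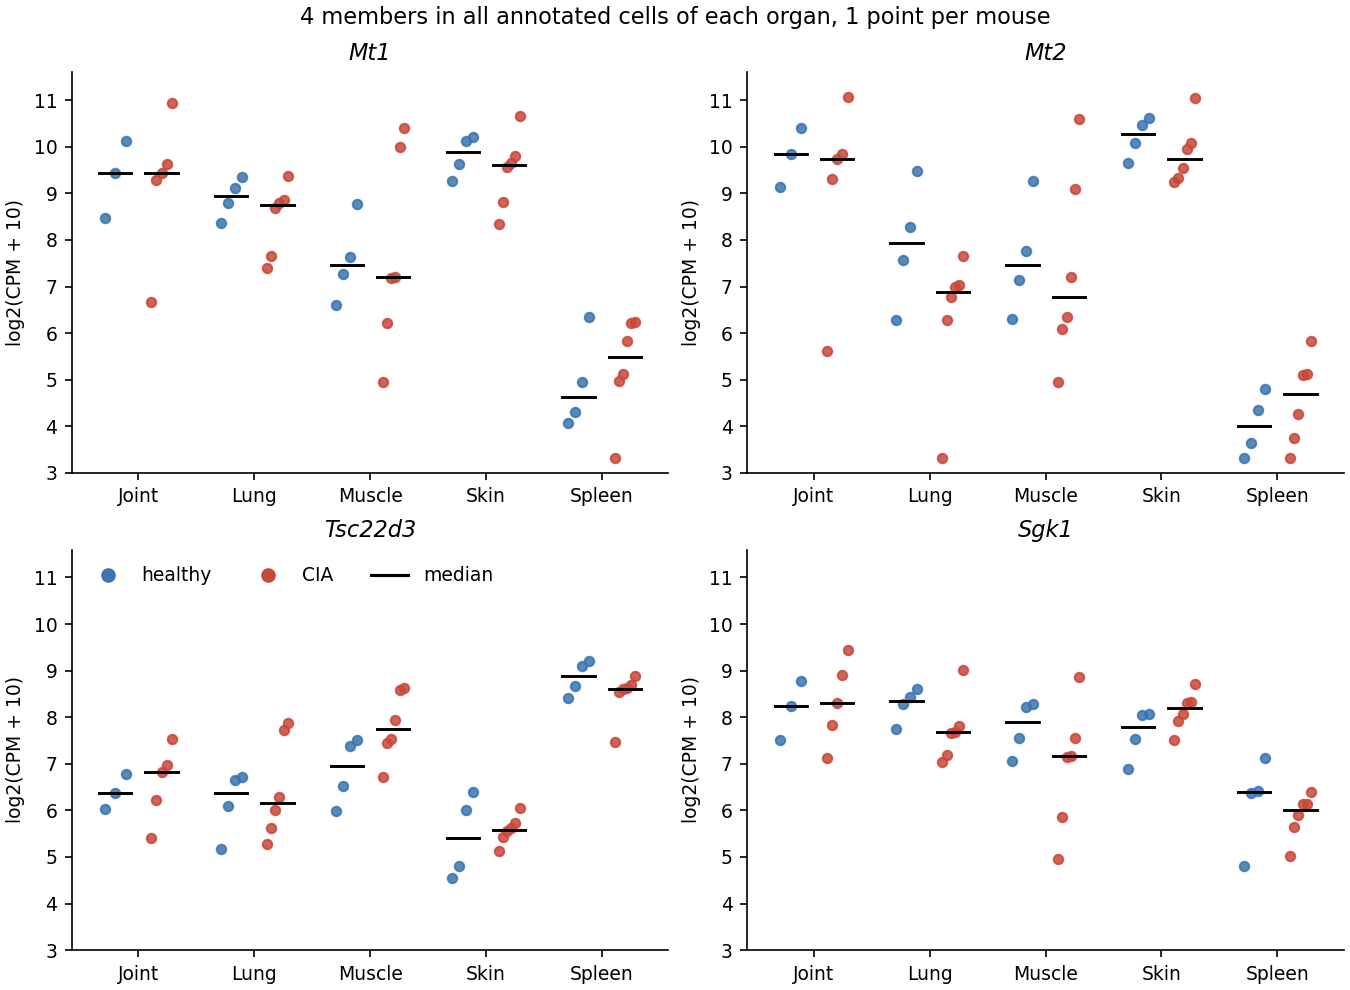
Level of *Mt1*, *Mt2*, *Tsc22d3* and *Sgk1* over all annotated cells of each organ, as log2(CPM + 10) on the vertical axis. Each point is 1 mouse, blue for healthy and red for CIA, and the black line is the median of the group; spleen has the lowest *Mt1* and *Mt2* and the highest *Tsc22d3* mean, and blue and red points overlap in each organ.

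The levels followed the cell types within the organs. Fibroblasts held 49.8% of all *Mt1* and 54.7% of all *Mt2* UMIs with 13.6% of all UMIs, and Basal III cells, the basal keratinocytes of the study's annotation, held 21.2% and 27.0% with 7.75%. *Mt2* is 1 of the marker genes by which the study named Basal III cells, so that its level there is a description and no finding. B cells, which held 8.45% of all UMIs, had 0.266% of the *Mt1* and 0.0655% of the *Mt2* UMIs.

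Among the 23 combinations of an organ and a cell type that had 10 or more cells in 3 or more mice, the same 4 groups led for both metallothioneins. *Mt1* was 1542 ± 998 CPM in joint fibroblasts (n = 6 mice), 949 ± 410 in skin Basal III cells (n = 10), 806 ± 598 in muscle fibroblasts (n = 8) and 764 ± 662 in skin fibroblasts (n = 9). *Mt2* was 1871 ± 1002, 1268 ± 582, 1169 ± 449 and 1024 ± 708 CPM in the same groups. Endothelial cells came next, with 621 ± 306 CPM of *Mt1* in muscle (n = 4) and 464 ± 297 in joint (n = 5), followed by lung macrophages at 450 ± 176 (n = 10). The SDs of these neighbours overlap. At the low end, *Mt1* was 11.9 CPM in splenic B cells, 8.17 in muscle NK cells, 7.49 in splenic NK cells and 3.59 in splenic granulocytes.

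*Sgk1* was highest in stromal and vascular cells. It reached 569 ± 217 CPM in joint endothelial cells (n = 5), 456 ± 224 in joint fibroblasts (n = 6), 415 ± 140 in muscle endothelial cells (n = 4), 400 ± 188 in muscle fibroblasts (n = 8), 369 ± 122 in skin fibroblasts (n = 9) and 290 ± 118 in lung macrophages (n = 10). *Tsc22d3* was highest in cells of the spleen, at 597 ± 209 CPM in B cells (n = 10), 422 ± 314 in dendritic cells (n = 6), 373 ± 121 in NK cells (n = 9) and 310 ± 76.8 in monocytes (n = 10). Splenic erythrocytes had 227 ± 71.6 CPM (n = 6), muscle fibroblasts 165 ± 155 (n = 8), joint macrophages 108 ± 77.8 (n = 7) and lung macrophages 77.3 ± 60.4 (n = 10). The highest mean of *Per1* (95.8 ± 114 CPM, splenic erythrocytes, n = 6), *Fkbp5* (51.1 ± 59.0, muscle NK cells, n = 4) and *Zbtb16* (26.0 ± 44.2, muscle endothelial cells, n = 4) rested on 14, 4 and 3 UMIs and was smaller than its SD.

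**Figure D2:**
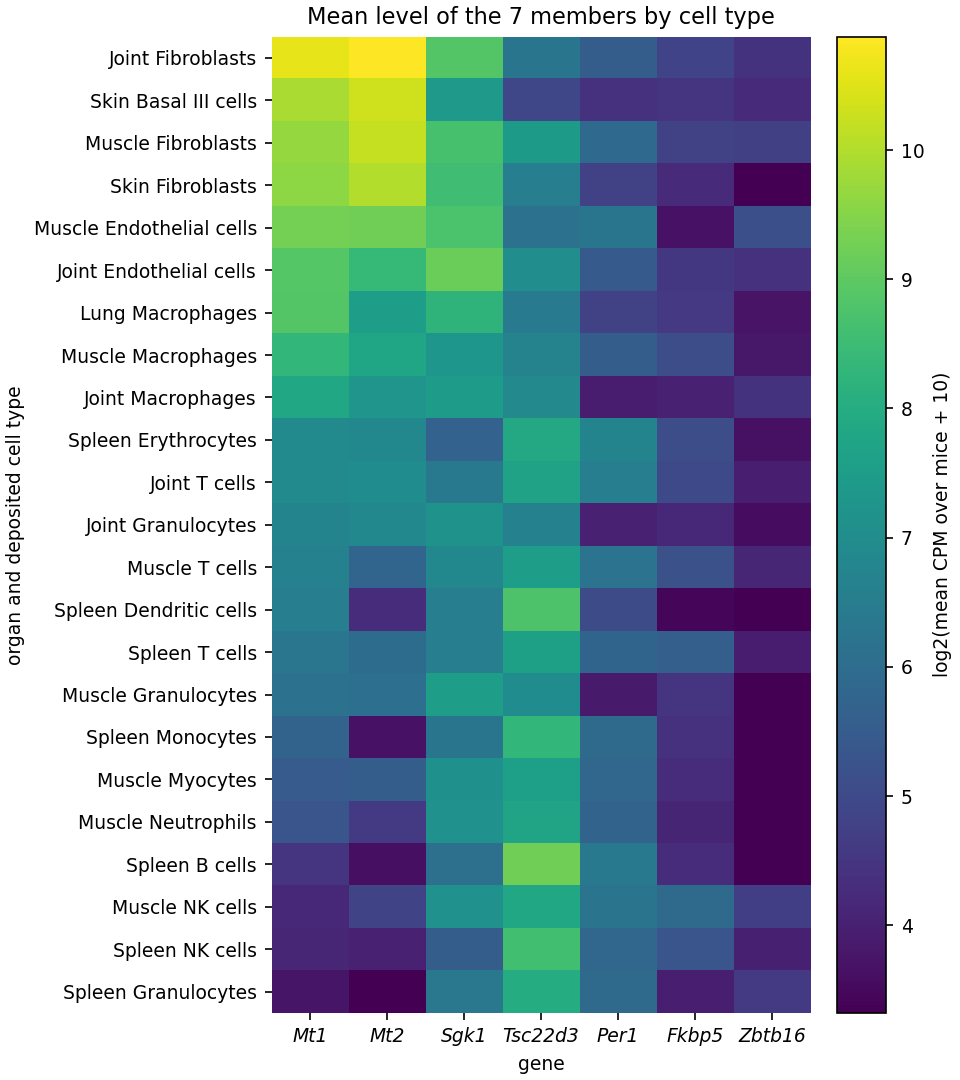
Colour gives log2(mean CPM over mice + 10) of the 7 genes (columns) in the 23 groups of organ and deposited cell type with at least 3 mice (rows, ordered by *Mt1*). Fibroblasts and Basal III cells are at the top for *Mt1* and *Mt2*, while the highest *Tsc22d3* is in splenic B cells and the highest *Sgk1* in joint endothelial cells.

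Likeness between genes was measured over the 28 combinations of an organ and a cell type that held 50 or more cells, as Pearson's r of log2(CPM + 10). The groups share libraries and differ in depth, so that r is a description. *Mt1* and *Mt2* had an r of 0.93. Among 6663 other genes, those most like *Mt1* were *Hbegf* (0.92), which encodes a growth factor of the EGF family, *Ptms* (0.91) and *Klf9* (0.89), itself a glucocorticoid-induced transcription factor. Those most like *Mt2* were *Cyr61* (0.92), a matrix-associated signalling protein, *Hspb8* (0.90), a small heat shock protein, and again *Klf9* (0.90). *Sgk1* was most like *Cyr61* (0.89), *Cav1* (0.88), which encodes the coat protein of caveolae, and *Maged1* (0.88). *Tsc22d3* was closest to *9930111J21Rik2* (0.87) and to the B cell genes *Mef2c* (0.85) and *Cd22* (0.84), and *Per1* to *Icosl* (0.88), *Zcchc2* (0.81) and *Casp8* (0.80). Between members, *Sgk1* had an r of 0.76 with *Mt1*, whereas *Tsc22d3* had an r of -0.78 with *Mt1* and -0.57 with *Sgk1*.

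The 2 metallothioneins did not keep one ratio across organs. The share of *Mt1* in the UMIs of both genes was 43.3% ± 6.31 in skin (SD, n = 10 mice), 48.2% ± 9.43 in joint (n = 8), 52.7% ± 10.1 in muscle (n = 10), 72.3% ± 19.7 in lung (n = 10) and 74.7% ± 16.8 in spleen (n = 9 mice with UMIs of either gene). Lung was above skin in 9 of 10 mice, by 29.0 percentage points (exact sign-flip test over mice, two-sided, p = 0.00391, adjusted over 3 pairs 0.00879). It was above muscle in 9 of 10 mice, by 19.6 points (exact p = 0.00586, adjusted 0.00879), and above joint in 7 of 8 mice, by 21.5 points (exact p = 0.0234, adjusted 0.0234). These pairs were chosen after the shares were seen. Counts were low in lung and spleen, with 350 and 157 UMIs of both genes over all mice against 2496 in skin.

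The difference was seen between cell types too. The share of *Mt1* was 72.9% in lung macrophages (306 UMIs, exact 95% binomial interval 67.5 to 77.8%), 66.2% in joint macrophages (130 UMIs, 57.3 to 74.2%) and 59.5% in muscle macrophages (153 UMIs, 51.3 to 67.3%). It was 45.7% in joint fibroblasts (2764 UMIs, 43.8 to 47.5%), 44.6% in muscle fibroblasts (1071 UMIs, 41.6 to 47.7%), 43.9% in skin fibroblasts (708 UMIs, 40.2 to 47.7%) and 41.3% in skin Basal III cells (1732 UMIs, 39.0 to 43.6%). In the same lungs, fibroblasts had 37.5%, on only 24 UMIs (18.8 to 59.4%). The intervals cover counting error only. In macrophages of joint, lung and muscle, *Mt1* thus made up more of the metallothionein UMIs than in fibroblasts of joint, muscle and skin.

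**Figure D3:**
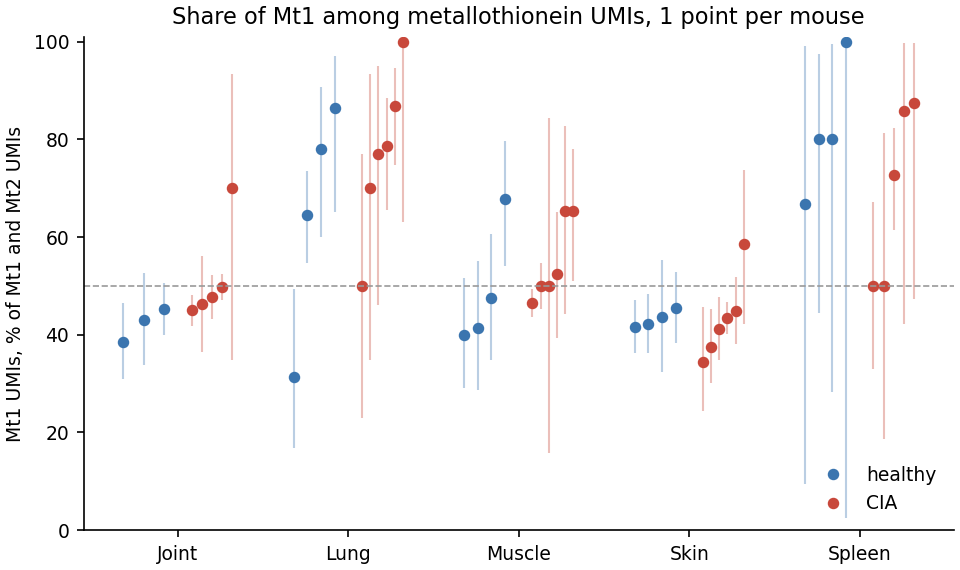
Share of *Mt1* in the UMIs of *Mt1* and *Mt2* together, in percent, per organ and mouse (blue for healthy, red for CIA), with exact 95% binomial intervals as vertical lines and a dashed line at 50%. Most lung and spleen samples lie above the line with wide intervals, and all but 1 of the skin samples lie below it.

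CIA was then compared with healthy mice in each organ and cell type, to ask whether the stress genes differ in arthritic mice, and in which organs. The UMI sums were tested with the quasi-likelihood test of edgeR, and an adjusted p below 0.05 (Benjamini-Hochberg over all genes tested) is the threshold for a call. No member was called in any of the 20 fits, which comprise all cells of the 5 organs, 11 cell types within an organ, 3 fits across organs and 1 test of a difference between organs. In these fits the members gave 50 values past the filter on low counts, of which 5 had an unadjusted p below 0.05, and with the values of genes under the filter 16 of 136. Over all genes past the filter, the share at such a p ran from 2.61% in splenic NK cells to 22.3% across fibroblasts. No excess of members is read from these counts. DESeq2, run in the 16 fits of an organ or cell type, called 1 member value, *Mt1* in muscle fibroblasts. A p that misses the threshold does not show that healthy and CIA mice are alike, and the intervals below give the differences that remain possible. Sums over a whole organ cannot tell fewer cells of a type from less RNA per cell.

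Few genes of any kind were called over all cells of an organ. The share of tested genes called was 0.127% in joint, 4.96% in lung, 0.055% in muscle, 0% in skin (7.34% at an unadjusted p below 0.05) and 0.137% in spleen. Between 2 and 5 members passed the filter in an organ.

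Across all organs together, no common shift of a member was called. With organ as a term and the mouse as a random block (limma voom, 48 samples, 0.433% of 3466 genes called), the log2 fold change in CIA was -0.10 for *Mt1* (95% interval -0.79 to 0.58, adjusted p = 0.993), -0.31 for *Mt2* (-1.06 to 0.44, adjusted p = 0.943), 0.07 for *Tsc22d3* (-0.33 to 0.46, adjusted p = 0.990) and -0.17 for *Sgk1* (-0.66 to 0.32, adjusted p = 0.945). For *Tsc22d3*, a mean rise over the organs above 0.46 on the log2 scale lies outside this 95% interval. The interval does not bound the change in a single organ. The sign of *Mt1* turned without CIA mouse 8 (0.16), and that of *Tsc22d3* without healthy mouse 3 (-0.06), healthy mouse 6 (-0.03), CIA mouse 5 (-0.01) or CIA mouse 8 (-0.01). Nor was a difference of the disease effect between organs called for any of the 5 members that passed (adjusted p 0.951 for *Mt1*, 0.893 for *Mt2*, 0.882 for *Tsc22d3*, 0.752 for *Per1* and 0.731 for *Sgk1*, limma voom; 1.41% of 4878 genes were called).

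Fibroblasts could be compared in joint, muscle and skin. In joint fibroblasts, *Mt1* was 601, 867 and 1139 CPM in healthy mice 3, 4 and 7 and 1314, 3337 and 1993 CPM in CIA mice 1, 3 and 5. Every CIA mouse was above every healthy mouse. The log2 fold change was 1.28 (95% interval 0.24 to 2.32), with an unadjusted p of 0.0206 and an adjusted p of 0.204 (edgeR). *Mt2* was 1108, 867 and 1553 CPM in the same healthy mice and 1864, 3672 and 2163 CPM in the CIA mice, again without overlap. Its log2 fold change was 1.08 (0.15 to 2.01, unadjusted p = 0.0271, adjusted p = 0.237, edgeR). In this fit, 1.68% of 1014 genes were called, 17.8% had an unadjusted p below 0.05 and 18.1% were higher in each CIA mouse than in each healthy mouse. Neither such a p nor the lack of overlap is rare there. *Sgk1* overlapped, with 142, 387 and 673 CPM in healthy and 262, 634 and 635 CPM in CIA mice, each given from lowest to highest. Its log2 fold change of 0.34 (-0.89 to 1.56) turned to -0.12 without healthy mouse 3.

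Other markers moved beside the joint fibroblasts. The granulocyte marker list (4 genes, none at 0) summed to 1393 to 5900 CPM in healthy and 13231 to 29491 CPM in CIA fibroblasts, without overlap, and the macrophage list (10 genes, none at 0) to 728 to 1268 and 1030 to 2768 CPM. Fibroblasts made up 42.2 to 52.8% of the annotated cells of the 3 healthy joints and 4.82 to 44.4% of those of the 5 CIA joints. *Gsn*, which encodes the actin-severing protein gelsolin and is 1 of the 8 fibroblast markers of the list, was called lower (log2 fold change -3.85, adjusted p = 0.0282, edgeR), at 12862 to 18580 CPM in healthy and 291 to 1624 CPM in CIA fibroblasts. The summed fibroblast list overlapped, at 25516 to 41851 CPM in healthy and 19204 to 56564 CPM in CIA fibroblasts. What part these shifts have in the metallothionein values was not tested.

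In muscle fibroblasts, *Mt1* was 309, 230, 295 and 717 CPM in healthy mice 3, 4, 6 and 7 and 1655, 687, 1767 and 793 CPM in CIA mice 1, 2, 5 and 6. Of the 4 CIA mice, 3 were above every healthy mouse, and CIA mouse 2 was below healthy mouse 7. The log2 fold change was 1.86 (95% interval 0.76 to 2.97, unadjusted p = 0.00365, adjusted p = 0.158, edgeR). DESeq2 gave 1.87 with an adjusted p of 0.0269, and over all alternatives the adjusted p ran from 0.0269 to 0.947. None of the 173 genes tested was called by edgeR (0%), and 6.36% had an unadjusted p below 0.05. *Mt2* moved less, from 838, 1071, 688 and 1506 CPM in healthy to 1406, 755, 2011 and 1078 CPM in CIA mice, in the same orders, and only CIA mouse 5 was above every healthy mouse (log2 fold change 0.56 with an interval that includes 0, adjusted p = 0.731, edgeR). The healthy sums rest on few UMIs, 23 of *Mt1* and 61 of *Mt2* over all 4 mice. The haemoglobin list (4 genes, none at 0) reached 13335 to 144697 CPM in healthy and 3214 to 99169 CPM in CIA muscle fibroblasts, and their part in these values was not tested. Muscle of healthy mice 3 and 4 and CIA mice 1 and 5 was taken as without red cell lysis. There, *Mt1* was 309 and 230 CPM in the healthy and 1655 and 1767 CPM in the CIA mice. With lysis it was 295 and 717 CPM in healthy mice 6 and 7 and 687 and 793 CPM in CIA mice 2 and 6. Lysis was not a term in this fit, and its part was not tested.

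In the same muscle fibroblasts, the share of *Mt1* in the UMIs of both genes was 26.7% ± 6.42 in healthy mice (SD, n = 4) and 47.7% ± 4.81 in CIA mice (n = 4). Every CIA mouse was above every healthy mouse, and the exact permutation test gave p = 0.0286, the smallest it can give for 4 against 4, or 0.143 adjusted over the 5 cell types tested. The adjusted p misses the threshold, the test was chosen after the values of both genes were seen and rests on the same counts, of which the healthy mice had few. In the other 4 cell types (fibroblasts of joint and skin, skin Basal III cells, lung macrophages) the adjusted p was between 0.417 and 0.7.

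In skin fibroblasts the groups overlapped. *Mt1* was 899, 754, 547 and 423 CPM in healthy mice 3, 4, 6 and 7 and 863, 2386, 631, 167 and 211 CPM in CIA mice 1, 2, 3, 5 and 8. CIA mouse 2 was far above, and CIA mice 5 and 8 below, all healthy mice. The log2 fold change of 0.61 (95% interval -0.63 to 1.86, adjusted p = 0.793, edgeR; 0% of 349 genes called, 8.88% at an unadjusted p below 0.05) turned to -0.26 without CIA mouse 2, to -0.48 with experiment as a term and to -1.56 within the experiment CIA alone. *Mt2* was 952, 754, 497 and 978 CPM in healthy and 1258, 2772, 998, 501 and 506 CPM in CIA mice in the same orders (log2 fold change 0.74, -0.25 to 1.72, adjusted p = 0.661, edgeR), and -0.60 within the experiment CIA. For *Mt2*, the 3 CIA mice above every healthy mouse were the 3 mice of the experiment 2CIA, and healthy mouse 3, of the same experiment, was within the healthy range.

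The fit across the fibroblasts of joint, muscle and skin (23 samples, limma voom with the mouse as a random block) gave log2 fold changes of 1.00 for *Mt1* (95% interval 0.27 to 1.72, unadjusted p = 0.00893, adjusted p = 0.109), 0.71 for *Mt2* (0.20 to 1.22, 0.00798, 0.105) and 0.37 for *Sgk1* (-0.19 to 0.94, adjusted p = 0.414). Of 842 genes, 2.26% were called and 22.3% had an unadjusted p below 0.05. The estimated correlation between organs of a mouse was -0.023, so that the 23 samples entered nearly as independent units. *Tsc22d3*, which the filter removed, had 21 UMIs in healthy and 136 in CIA fibroblasts and a log2 fold change of 1.17 (0.36 to 1.97, unadjusted p = 0.00514, adjusted p = 0.234 over all genes with at least 10 UMIs). *Per1* had 0.64 (-0.09 to 1.37), and *Fkbp5* and *Zbtb16* had 24 and 15 UMIs in all.

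**Figure D4:**
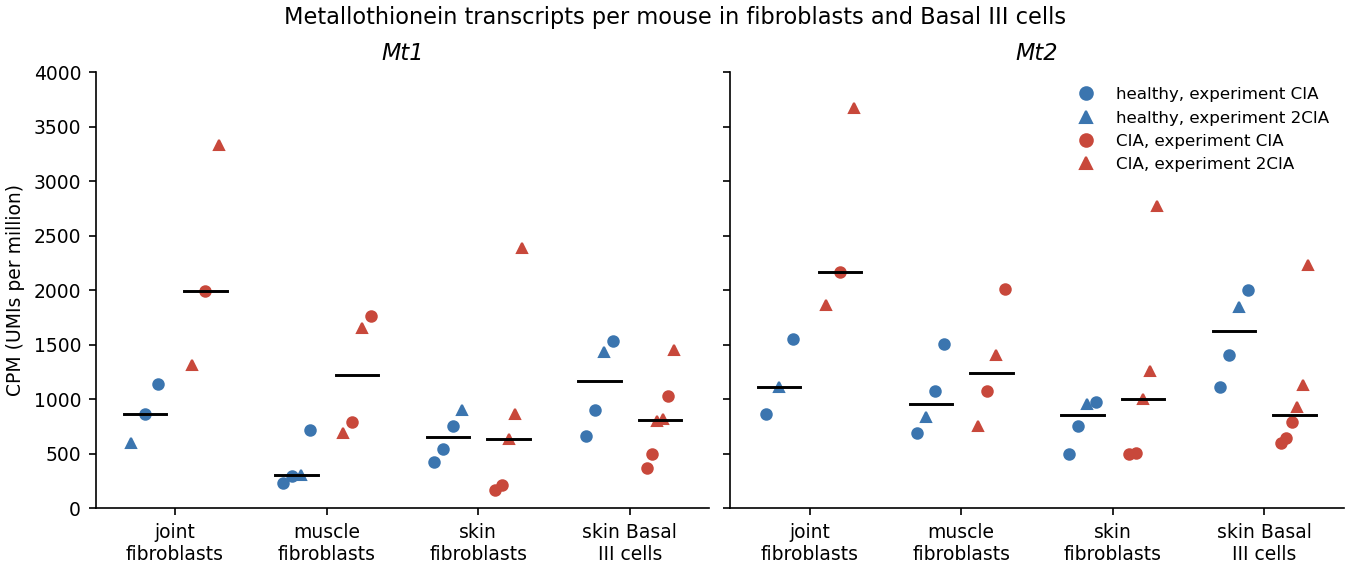
CPM of *Mt1* (left) and *Mt2* (right) in fibroblasts of joint, muscle and skin and in skin Basal III cells. Each point is 1 mouse, blue for healthy and red for CIA, a triangle for the experiment 2CIA and a circle for the experiment CIA, with the median of each group as a black line; in joint fibroblasts all CIA points lie above all healthy points, and in the other groups they overlap.

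Skin Basal III cells went the other way, without passing the threshold. *Mt2* was 1849, 1110, 1408 and 1999 CPM in healthy mice 3, 4, 6 and 7, and in the 6 CIA mice it had its lowest value at 595 CPM, its median at 857 CPM and its highest at 2232 CPM. Of the CIA mice, 4 were below every healthy mouse and CIA mouse 2 was above all of them. The log2 fold change was -0.58 (95% interval -1.26 to 0.10, adjusted p = 0.870, edgeR; 0% of 1280 genes called, 5.55% at an unadjusted p below 0.05), and -0.97 without CIA mouse 2. *Mt1* had -0.50 (-1.22 to 0.21, adjusted p = 0.893), and *Sgk1* 0.18 (-0.65 to 1.00). Over all cells of skin the values were -0.21 for *Mt1*, -0.24 for *Mt2* and 0.34 for *Sgk1*, with intervals that include 0.

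In lung, macrophages made up 75.4 to 96.7% of the annotated cells and held 83 *Mt2* UMIs, against 15 in fibroblasts. *Mt2* was 68.1, 301, 181 and 701 CPM in healthy mice 3, 4, 6 and 7, and 0, 109 and 191 CPM at the lowest, median and highest of the 6 CIA mice. The groups overlapped, with healthy mouse 3 among the CIA values. *Mt2* had 72 UMIs in healthy and 32 in CIA lungs and did not pass the filter. In the fit over all genes its log2 fold change was -1.56 (95% interval -2.46 to -0.65, unadjusted p = 0.00072, adjusted p = 0.123, edgeR). The adjusted p ran from 0.0451 with RLE factors to 1 with the mouse number as a block, where the log2 fold change was -0.68. With that block, the disease effect rests on the mice numbered 3 and 6 alone. The adjusted p was 0.0493 without healthy mouse 3. Leaving out healthy mouse 7, the highest, gave -1.08.

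*Mt1* and *Sgk1* passed the filter in lung. *Mt1* had a log2 fold change of -0.43 (95% interval -1.11 to 0.24, adjusted p = 0.590, edgeR). *Sgk1* was 204, 301, 336 and 380 CPM in the healthy mice and 121, 194 and 507 CPM at the lowest, median and highest of the CIA mice, and 4 of 6 CIA mice were below every healthy mouse (log2 fold change -0.63, -1.38 to 0.13, adjusted p = 0.442, edgeR). In lung macrophages alone *Sgk1* was 258 to 423 CPM in healthy mice and below that range in 5 of 6 CIA mice, with CIA mouse 8 at 522 CPM above it (-0.63, -1.36 to 0.11, adjusted p = 0.383; 6.51% of 538 genes called). In the same macrophages the granulocyte marker list (none of 4 genes at 0) was 356 to 545 CPM in healthy and 580 to 14701 CPM in CIA mice. Most of this sum was *S100a8* (log2 fold change 4.19, at most 12458 CPM) and *S100a9* (2.49, at most 2082 CPM). These were called higher, whereas *Camp* and *Ngp* were not called. The part of this list in the values was not tested. The lung of CIA mouse 8 was the shallowest library, with 30 cells.

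Over all cells of joint, the metallothioneins did not separate the groups. *Mt1* was 345, 1112 and 681 CPM in healthy mice 3, 4 and 7 and 687, 1959, 617, 780 and 91.1 CPM in CIA mice 1, 3, 5, 6 and 8 (log2 fold change 0.28, -1.12 to 1.68, adjusted p = 0.901, edgeR). *Mt2* had 0.02 (-1.48 to 1.53), *Tsc22d3* 0.47 (-0.68 to 1.61) and *Sgk1* 0.38 (-0.69 to 1.46). The joint of CIA mouse 8, with fibroblasts at 4.82% of its cells, had the lowest *Mt1* and *Mt2* of all joints, and CIA mouse 3 the highest. Without CIA mouse 3 the values of *Mt1* and *Mt2* turned to -0.27 and -0.52, and without healthy mouse 3 to -0.08 and -0.27; that of *Mt2* was -0.05 without healthy mouse 7. In joint macrophages (10.3% of 273 genes called) no member passed the filter.

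In muscle, no member was called. *Mt1* was 429, 189, 145 and 88.0 CPM in healthy mice 3, 4, 6 and 7 and ran from 21.1 over a median of 137 to 1343 CPM in the CIA mice, with 2 CIA mice above and 2 below all healthy mice (log2 fold change 1.07, -1.02 to 3.15, adjusted p = 1.000, edgeR). It turned to -0.06 without CIA mouse 5. Fibroblasts made up 50% of the annotated cells in the muscle of CIA mouse 5, 40% in that of CIA mouse 1 and 41.4% in that of healthy mouse 3, the 3 mice with the highest *Mt1* (1343, 1011 and 429 CPM), and 13.1% or less in the other 7. Muscle of these 3 mice and of healthy mouse 4 (13.1%) is that taken as without red cell lysis, so that fibroblast share and lysis go together here. *Mt2* had 0.73 (-1.48 to 2.95) and *Sgk1* -0.56, with an interval that includes 0. *Tsc22d3* was 53.6 to 172 CPM in healthy and 95.5 to 387 CPM in CIA muscle, and 4 of 6 CIA mice were above every healthy mouse (0.79, -0.20 to 1.77, adjusted p = 1.000). Among these is CIA mouse 8, whose muscle library had values close to those of spleen, and without it the log2 fold change was 0.54. *Per1* had 0.76 (-0.19 to 1.71, adjusted p = 1.000). Of the cells compared within muscle, T cells (0.0511% of 1957 genes called) had *Tsc22d3* at -0.08 (-1.02 to 0.86) and *Sgk1* at -0.48 (-1.42 to 0.47). Macrophages (0.183% of 545 genes called) had no member past the filter, and *Mt1*, under it, had 1.58 (0.18 to 2.97, unadjusted p = 0.0270, adjusted p = 0.669).

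In spleen, where *Tsc22d3* was highest, it was 332, 542, 399 and 582 CPM in healthy mice 3, 4, 6 and 7 and 167, 382 and 463 CPM at the lowest, median and highest of the CIA mice. The groups overlapped, and the log2 fold change was -0.34 (95% interval -0.98 to 0.30, adjusted p = 0.980, edgeR). In splenic B cells it was -0.16 (-0.94 to 0.63, 0% of 1252 genes called), which turned to 0.01 without CIA mouse 3. It was -0.07 (-0.71 to 0.58) in monocytes, in which 6.36% of 456 genes were called, and -0.25 (-1.07 to 0.57) in NK cells, in which 0% of 421 genes were. In these B cells, monocytes and NK cells, a rise of *Tsc22d3* by more than 0.63 on the log2 scale lies outside all 3 of the 95% intervals. Other cell types of the spleen were not compared. *Per1* (-0.53, -1.60 to 0.54) and *Sgk1* (-0.49, -1.45 to 0.47) also overlapped between the groups.

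Metallothionein in spleen was low, and the values of *Mt1* split by experiment. *Mt1* was 71.8 CPM in healthy mouse 3 and 47.3, 64.9 and 65.1 CPM in CIA mice 1, 2 and 3, all of the experiment 2CIA. In the experiment CIA it was 9.73, 21.0 and 6.85 CPM in healthy mice 4, 6 and 7 and 21.3, 0 and 24.8 CPM in CIA mice 5, 6 and 8. Each mouse of the former was above each mouse of the latter, as was the case for 1.17% of the 12997 genes with at least 10 UMIs in spleen. This split was noticed in the values and not tested. *Mt2*, on 4 UMIs in healthy and 46 in CIA spleens, had a log2 fold change of 1.93 (0.24 to 3.62, adjusted p = 0.649, edgeR), which was -1.55 with the mouse number as a block. There too, only the mice numbered 3 and 6 carry the disease effect.

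**Figure D5:**
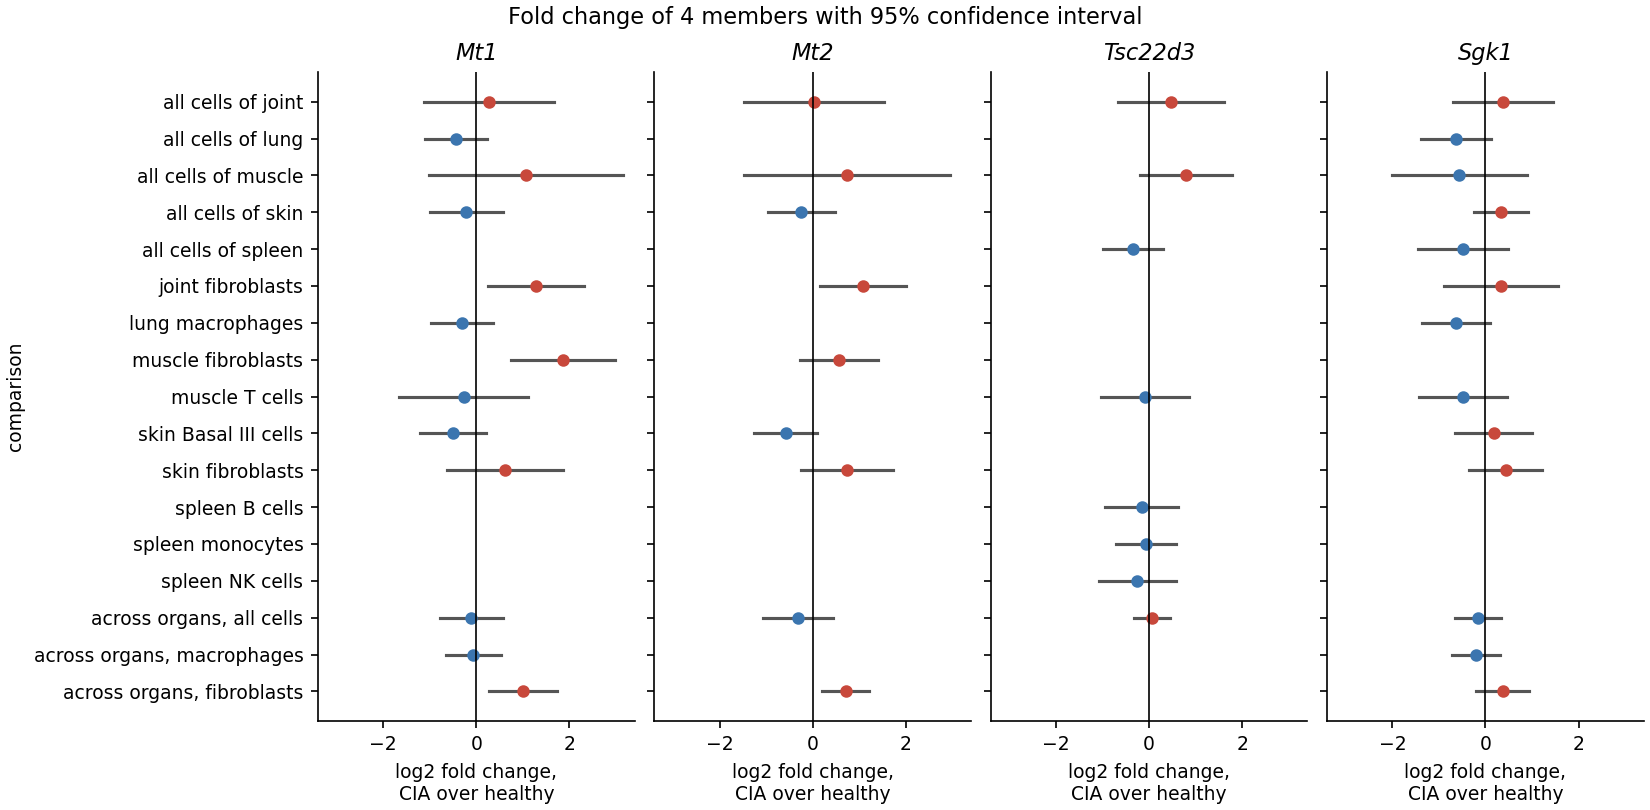
Log2 fold change of CIA over healthy mice (points, red above 0 and blue below) with 95% intervals (lines) for *Mt1*, *Mt2*, *Tsc22d3* and *Sgk1*, in the comparisons in which the gene passed the filter on low counts. The intervals of *Mt1* and *Mt2* in joint fibroblasts and across fibroblasts and of *Mt1* in muscle fibroblasts lie above 0, and all others include it.

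*Zbtb16* was too sparse for a comparison. Skin held 6 UMIs in the 4 healthy and 0 in the 6 CIA mice, on 750057 UMIs, which allows up to 4.00 CPM over the CIA group, whereas spleen held 0 in the healthy mice, on 763958 UMIs, which allows up to 3.93 CPM, and 6 in the CIA mice. The 6 healthy skin UMIs correspond to 15.0 CPM, above the CIA limit, and 4 of them came from mouse 7. The 6 CIA spleen UMIs correspond to 3.05 CPM, below the healthy limit. In edgeR over all genes, *Zbtb16* had an unadjusted p below 0.05 in skin, spleen, skin Basal III cells and joint macrophages, and was not called. *Fkbp5* had 3 UMIs in healthy and 26 in CIA joints, 11 and 72 in muscle, 10 and 30 in spleen and 6 each in lung. These sums are not corrected for depth and are not levels. The healthy and CIA groups held 404 and 1826 annotated cells in joint, 1057 and 3508 in muscle and 1007 and 2313 in spleen. In no organ did *Fkbp5* reach an unadjusted p below 0.05 (edgeR over all genes).

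The other genes of the pathway were read from fixed lists. Of 16 other glucocorticoid-induced genes, 11 passed the filter across all cells of all organs and none was called or had an unadjusted p below 0.05 (limma voom), with a median log2 fold change of -0.09 against -0.01 over all genes tested. Across fibroblasts, 7 of them passed, with a median of -0.18 and none called, and only *Cdkn1a*, a cell cycle inhibitor, had an unadjusted p below 0.05 (-0.56, adjusted p = 0.221). In these cells, *Klf9* was at -0.21 and *Errfi1* at -0.31, and neither passed the threshold. In joint macrophages, *Nfkbia*, which encodes the inhibitor of NF-κB and is induced by both glucocorticoids and inflammation, was called lower (log2 fold change -1.26, 95% interval -2.05 to -0.47, adjusted p = 0.04997, edgeR). It was 2521 to 2614 CPM in the 3 healthy and 376 to 1640 CPM in the 4 CIA mice. In this fit 10.3% of 273 genes were called. The granulocyte marker list summed to 924 to 8229 CPM in healthy and 33192 to 59263 CPM in CIA joint macrophages. Of this list, *S100a8* (log2 fold change 3.39) and *S100a9* (2.97) were called higher, and *Camp* and *Ngp* were not called. Of the 10 macrophage markers, *C1qc* (-1.59) was called lower and no other was called. The part of these markers in the *Nfkbia* value was not tested.

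Of the receptor and its cofactors (9 genes, 6 passed across all cells), none was called, and *Nr3c1*, the glucocorticoid receptor, was at -0.02 (adjusted p = 0.993, limma voom). *Hsp90aa1*, the chaperone that holds the receptor ready, was at -0.27 (unadjusted p = 0.0206, adjusted p = 0.479). Of 11 genes of metal handling and oxidative stress, 5 passed and none was called, with the zinc importer *Slc39a1* at 0.52 (unadjusted p = 0.0208, adjusted p = 0.480) and the keratinocyte metallothionein *Mt4* at -1.44 (unadjusted p = 0.00833, adjusted p = 0.348). None of the 9 clock genes passed the filter.

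Immediate early and heat shock genes, which rise within minutes of stress and during tissue dissociation, were measured as a check on handling. All 12 passed across all cells, and each had a log2 fold change below 0, with a median of -0.44. Of the 3466 genes tested, 1773 were below 0. None of the 12 was called (limma voom). An unadjusted p below 0.05 was found for 5 of the 12, against 7.91% of the 3466 genes tested. These were *Atf3* at -0.62, *Fosb* at -0.59, *Fos* at -0.56, *Jun* at -0.47 and *Junb* at -0.27. *Fos* was called lower in joint macrophages (-1.70, adjusted p = 0.00997, edgeR; 10.3% of 273 genes called), the cells with the higher granulocyte markers given above, whose part in it was not tested, and across macrophages (-1.13, adjusted p = 0.0332, limma voom, 4.76% of 651 genes called). The median of the list was -0.38 in joint fibroblasts, 0.27 in muscle fibroblasts and 0.02 in skin fibroblasts. Their part in the metallothionein values was not tested.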

How the data were processed

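Single cells of 5 organs had been profiled with Seq-Well. The authors deposited 1 table of UMI counts per gene and cell, not normalized, with a cell table that gives mouse, organ, disease and cell type. Per the labels, bcl2fastq, Picard and STAR were used, with no version, and the builds GRCh38 and mm9 are named, whereas the study's methods give GRCm38; gene coordinates here are those of GRCm38 and were not taken from the counts. The members, lists and comparisons were chosen with earlier results of these data known.

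Counts were summed per mouse, organ and cell type (at least 10 cells per mouse and 3 mice per group) and compared in edgeR 4.0.16 under R 4.3.3 by its quasi-likelihood test (TMM factors, filterByExpr), with an adjusted p below 0.05 (Benjamini-Hochberg) as threshold. Genes removed by the filter were read from a fit over all genes with at least 1 UMI, or 10 UMIs across organs. Fits across organs used limma 3.58.1 (voom, with the mouse as a random block through duplicateCorrelation). Exact tests were run in scipy 1.17.1. The scripts were tested on simulated data. Alternatives were DESeq2 1.42.0, RLE factors, plain library sizes, no filter, a minimum of 5 cells, experiment or red cell lysis as a term, the experiment CIA alone, each mouse left out, and a block for the mouse number. Likeness was measured for members with at least 200 UMIs, and the 3 most alike genes were named. The 7 members were named in each comparison, and list genes where they were called, as were those with an unadjusted p below 0.05 and a few named after their values were seen (*Klf9*, *Errfi1*, *Nr3c1*). Doublets were not called here, and the deposited cell types were used as they are. Within an organ, the p-values measure the spread between mice. Across organs, the estimated correlation between organs of a mouse was 0.013 for all cells, -0.0092 for macrophages and -0.023 for fibroblasts. The p-values of these fits therefore rest mainly on the spread between samples. For *Mt1* and *Mt2* alone, the correlation over all cells was 0.18 and 0.149, which the common estimate does not take up. Samples held 17748 to 1645734 UMIs.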

Additional observations from a re-analysis of the deposited data

Results flagged for a closer look

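In groups of 4 to 6 mice, healthy and CIA apart, the highest or lowest mouse stood apart from the others (Dixon's criterion) in 9 of 56 groups tested. The criterion's rate of about 1 in 20 is for normally distributed values, which CPM on few UMIs need not be. The share over all genes was not computed, so that no excess is read from the count. The groups are not independent, since cells of a type are also among all cells of the organ, and *Sgk1* of CIA mouse 8 and *Mt2* of CIA mouse 2 each count in both. In CIA mouse 8, *Sgk1* was 507 CPM in lung, with the next CIA mouse at 215 CPM, and 522 CPM in lung macrophages, on 9 UMIs. In the muscle of CIA mouse 5, *Mt2* was 1542 CPM and *Sgk1* 456 CPM, with the next CIA mice at 535 and 178 CPM. In CIA mouse 2, *Mt2* was 2108 CPM in skin and 2232 CPM in skin Basal III cells, with the next CIA mice at 1071 and 1131 CPM. *Tsc22d3* was 167 CPM in the spleen of CIA mouse 3, below the next CIA mouse at 363 CPM. Of the healthy mice, *Per1* was 89.3 CPM in the muscle of mouse 3 and *Mt1* was 717 CPM in the muscle fibroblasts of mouse 7.

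Among the list genes, the disease effect differed between organs for *Anxa1*, which encodes the glucocorticoid-induced protein annexin A1 (adjusted p = 0.00558, limma voom), and for *Hmox1*, which encodes the haem-degrading enzyme haem oxygenase 1 (adjusted p = 0.0474). In spleen their log2 fold changes were 2.31 (95% interval 0.86 to 3.76, adjusted p = 0.275, edgeR) and 1.87 (adjusted p = 0.671), and in muscle they were -1.72 (adjusted p = 0.511) and -1.52 (adjusted p = 1.000). In this fit 1.41% of 4878 genes were called. The granulocyte and neutrophil markers *S100a8*, *S100a9*, *Ngp*, *Ltf* and *Camp* were called too (adjusted p 0.00019 to 0.000687). So were *F13a1*, *Cd14*, *Lyz2* and *Cxcl2* of the macrophage marker list (adjusted p 0.000478 to 0.0337, limma voom). Granulocytes made up a median of 1.36% of the annotated cells in healthy and 6.94% in CIA spleens, and 16.1% in healthy and 0.981% in CIA muscles. The part of granulocytes, macrophages or other cells in the values of *Anxa1* and *Hmox1* was not tested.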

How the results depend on the processing

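Of 385 alternative values of counts and shares, 384 were taken as unchanged. For a count this means equal or close to the reported one, and for a share the same direction and side of the threshold. Among them are 5 members called between organs over all genes with at least 10 UMIs, against 4 as reported. The unchanged counts include the 8 fits with a block for the mouse number, which had little power for a call, as given below. The exception was DESeq2 in muscle fibroblasts, which called 1 member. Of 521 alternative values of 31 fold changes, 495 kept their direction, 26 turned and 3 passed the threshold where the reported value did not. Within the experiment CIA alone the log2 fold change was -0.71 for *Mt1* and -0.99 for *Mt2* in joint, and -1.56 for *Mt1* and -0.60 for *Mt2* in skin fibroblasts. With experiment as a term it was -0.25 for *Mt2* in joint and -0.48 for *Mt1* in skin fibroblasts. In joint, *Mt2* was at -0.070 with plain library sizes and -0.024 without cells with a shared barcode. Across all cells, *Mt1* was at 0.24 in edgeR with samples taken as independent, and *Tsc22d3* at -0.0079 without joint. *Mt2* in lung passed with RLE factors (adjusted p = 0.0451).

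With 1 mouse left out, the log2 fold change ran from -0.27 to 0.97 for *Mt1* and from -0.52 to 0.59 for *Mt2* in joint, from -0.064 to 1.42 for *Mt1* in muscle, from -0.12 to 0.80 for *Sgk1* in joint fibroblasts, from -0.26 to 0.82 for *Mt1* in skin fibroblasts and from -0.35 to 0.013 for *Tsc22d3* in splenic B cells. Across all cells it ran from -0.23 to 0.16 for *Mt1* and from -0.058 to 0.22 for *Tsc22d3*. The cause of these turns was not tested.

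Healthy and CIA mice share the numbers 3 and 6 but are different animals. Their deviations correlated at -0.09 to 0.29, with the highest values for number 6 in muscle (0.29) and spleen (0.20). Mice of the same number also belong to the same experiment, and pairs of different numbers were not compared. These values therefore do not show what such pairs share. A block for that number was run in 8 fits and called 0 members (edgeR). The disease effect in these fits rests on the mice numbered 3 and 6 alone, which leaves little power for a call. The lack of calls is therefore no check on the members. The block turned *Mt1* in muscle to -0.78 and *Mt2* in spleen to -1.55.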

Other observations

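The cells without a deposited cell type, which entered no comparison, also carried the members. Summed over mice, the 377 such cells of healthy mice had 363 CPM of *Mt1* (exact 95% Poisson interval 292 to 446) and the 767 of CIA mice 281 CPM (234 to 334). *Mt2* was 282 and 252 CPM, *Tsc22d3* 291 and 202 CPM, and *Sgk1* 169 and 134 CPM. The intervals cover counting error only, and the difference was not tested.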
